A study of Mus musculus with 8 samples.

Results

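The transcripts described here are 9 genes of red blood cell identity, out of 53647 genes in the count table: the adult beta-globin genes Hbb-bs and Hbb-bt, the adult alpha-globin genes Hba-a1 and Hba-a2, the heme synthesis gene Alas2, the carbonic anhydrase genes Car1 and Car2, the red cell anion exchanger gene Slc4a1 and the transcription factor gene Klf1. They were put together because globin counts had been seen to be 0 in the co-cultured libraries, so their levels are given as a description and are not tested. That starting observation held for 3 of the 4 globins; Hbb-bt had 5 counts. Polyadenylated RNA had been sequenced from leukemia macrophages of C57BL/6 mice in 8 libraries. In 4 of them (Mac) the cells were cultured on their own, and in the other 4 (E-Mac, for MSC-educated) they shared the culture with MSC (mesenchymal stromal cells), the supporting cells of the marrow niche. Both groups were cultured for 12 h and sorted before RNA extraction. The labels name no genotype, leukemia model or sorting marker, and they leave out whether each library had its own mouse or culture. The p-values below therefore measure the spread between samples alone, and that spread may be technical.

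Mac libraries held 11646025 to 15556935 counts and E-Mac libraries 13377046 to 15740846. Even counts were more common than odd ones at the low end: 1816 to 1998 genes per library had 2 counts and 994 to 1137 had 1 count. The counting intervals below treat each count as a separate molecule and cover counting error only. Whether both mates of a read pair were counted is not stated; if they were, the intervals are too narrow and the bounds on a fold too high. E-Mac 2 and 4 stood apart from E-Mac 1 and 3, with a chi-square per degree of freedom of 21.4 to 37.1 across these pairs of libraries, against 5.16 between E-Mac 1 and 3 and 10.02 between E-Mac 2 and 4. They also held more of the stromal collagen gene Col1a1, which had 297, 2047, 226 and 1974 counts in E-Mac 1 to 4. Mac 1 to 4 had 20, 17, 16 and 14 counts of it, under every E-Mac library. The part of stromal RNA in the E-Mac levels was not tested. Levels are in CPM, which divides a count by the library's size in units of 1000000; that size is the sum over tested genes times the TMM factor, which balances libraries of different composition. Levels are given as mean ± SD over 4 libraries. The red cell label was checked against 12 erythroid defining markers. Kel and Cldn13, red cell surface and membrane genes, had 0 counts in all 8 libraries. The erythropoietin receptor gene Epor had 26 and 2 counts. Nearly all of the marker counts were those of the transcription factor Gata1, which is also active in eosinophils, mast cells and megakaryocytes. Without Gata1, a step chosen after its values had been seen, the other 11 markers summed to 1.17 to 3.0 CPM in Mac and 1.21 to 3.23 CPM in E-Mac. Apart from Gata1, these markers had few counts in both groups, and which cells carried the globin transcripts was not tested.

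Hemoglobin is a tetramer of alpha-like and beta-like globin chains, each holding a heme, and its messenger RNA makes up most of the RNA of maturing red cells. Alas2 makes the first compound of heme synthesis in these cells, Slc4a1 (band 3) exchanges chloride for bicarbonate across their membrane, and carbonic anhydrases interconvert carbon dioxide and bicarbonate. Klf1 is the Kruppel-like factor that switches on adult beta-globin through CACCC boxes. Marrow macrophages meet these transcripts from outside: they nurse erythroblasts in erythroblastic islands, engulf expelled nuclei and clear old red cells.

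The globin genes come in near-identical copies, which bears on how their counts can be read. On mm10 (GENCODE M21) Hbb-bs lies on chromosome 7, 103826534 to 103828096, with Hbb-bt 12.5 kb away at 103812524 to 103813996. Hba-a1 lies on chromosome 11, 32283511 to 32284465, and Hba-a2 at 32296489 to 32297298. All 4 are annotated as protein coding. The coding sequences of Hba-a1 and Hba-a2, both 429 bases long, differed at 1 base, C381T, and those of Hbb-bs and Hbb-bt, both 444 bases, also at 1 base, C417T. The first base is that of the first gene named, and positions count from 1 at the A of the start codon. Both are at the third base of a codon. The 41 bases around each are shown, in capitals the base that differs, since it is the only letter inside the coding sequence that tells the copies apart. They lie in the last exon of each gene, at chr11:32284323-32284363, chr11:32297140-32297180, chr7:103826672-103826712 and chr7:103812663-103812703, the chromosome 7 genes on the minus strand.
Hba-a1: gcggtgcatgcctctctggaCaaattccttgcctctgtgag
Hba-a2: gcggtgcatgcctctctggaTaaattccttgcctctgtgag
Hbb-bs: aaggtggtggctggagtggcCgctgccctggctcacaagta
Hbb-bt: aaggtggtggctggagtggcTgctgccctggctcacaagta
The longest run without a difference was 380 coding bases in the alpha pair and 416 in the beta pair. The sources used here do not say how reads matching both copies were assigned. The split of counts between copies is therefore uncertain, and the sum of a pair is safer to read if such reads were kept.

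The promoters of members that stood at or near 0 together were set side by side. RefSeq's table (GRCm38.p6) held 6 of the 9 members; the others are Car1, Car2 and Slc4a1. The 120 bases before the RefSeq start of Hbb-bs, Hbb-bt, Hba-a2 and Alas2 are shown because these are the 3 distinct globin promoters and the heme synthesis member that was low beside them. Capitals mark the CACCC box, the CCAAT box, the TATAA box and the GATAA motif on either strand. Reversed, these read GGGTG for the first, ATTGG for the second, TTATA for the third and TTATC for the last. The windows are chr7:103827929-103828048 and chr7:103813924-103814043 on the minus strand and chr11:32296372-32296491 and chrX:150547297-150547416 on the plus strand.
Hbb-bs: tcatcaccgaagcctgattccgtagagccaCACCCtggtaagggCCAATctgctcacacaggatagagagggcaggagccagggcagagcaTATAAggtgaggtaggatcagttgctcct
Hbb-bt: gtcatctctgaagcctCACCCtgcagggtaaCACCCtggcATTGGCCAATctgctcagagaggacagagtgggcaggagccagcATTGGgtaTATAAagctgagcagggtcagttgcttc
Hba-a2: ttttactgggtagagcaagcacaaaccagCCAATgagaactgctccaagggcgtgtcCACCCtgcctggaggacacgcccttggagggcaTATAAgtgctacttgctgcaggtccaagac
Alas2: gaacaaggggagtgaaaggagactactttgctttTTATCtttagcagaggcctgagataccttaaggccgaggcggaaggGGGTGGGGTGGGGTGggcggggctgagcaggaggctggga
The CACCC letters, the CCAAT letters and the TATAA letters were each found in all 4 globin promoters, and 0.688% of 32851 promoters held all 3 in such a window. Singly they were found in 31.7, 21.3 and 11.8% of promoters. In Hbb-bt a reversed CCAAT stands directly before one as written, with no shared letter. GATAA, the core of the GATA factor motif, was found in 10.5% of promoters, in none of the 4 globin windows and once, reversed, in that of Alas2, which also held reversed CACCC. The windows of Hba-a1 and Hba-a2 shared a run of 117 bases, those of Hbb-bs and Hbb-bt a run of at most 14. A match is only a run of letters, and its absence says nothing about a factor.

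Globin transcripts were present in every Mac library and nearly absent from every E-Mac library. Hbb-bs had 416, 251, 543 and 428 counts in Mac 1 to 4 and 0 in each E-Mac library. Hba-a1 had 214, 245, 251 and 173 counts in Mac and Hba-a2 had 85, 77, 147 and 76, again with 0 in each E-Mac library. Hbb-bt had 224, 53, 69 and 54 counts in Mac and 0, 3, 0 and 2 in E-Mac. The groups did not overlap for any of the 4. In Mac, Hbb-bs stood at 26.6 ± 5.13 CPM, Hba-a1 at 14.9 ± 4.12, Hbb-bt at 6.47 ± 4.98 and Hba-a2 at 6.35 ± 1.92 (n = 4). For comparison, the median tested gene had 21.8 CPM in Mac, and 45.6% of tested genes stood above Hbb-bs. With 0 counts over 4 libraries, at most 0.0534 CPM is allowed in E-Mac (3 counts over the group). Against that floor Hbb-bs was at least 498-fold, Hba-a1 at least 279.6-fold and Hba-a2 at least 119-fold lower in E-Mac. If each read pair gave 2 counts, the floor is 6 counts and these bounds are 249-, 139.8- and 59.4-fold. Hbb-bt was 74.1 times higher in Mac (95% counting interval 31.5 to 229). Mac 1 held 224 of its 400 Mac counts; without that library the ratio was 44.4 (18.7 to 138). Together the 4 globins held 626 to 1010 counts in a Mac library and 0 to 3 in an E-Mac library. They took 0.00475 to 0.00649% of the counts of a Mac library, and 45.1 to 62.0 CPM. In a bulk sample, fewer cells that carry a transcript and less of it per cell cannot be told apart.

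**Figure D1:**
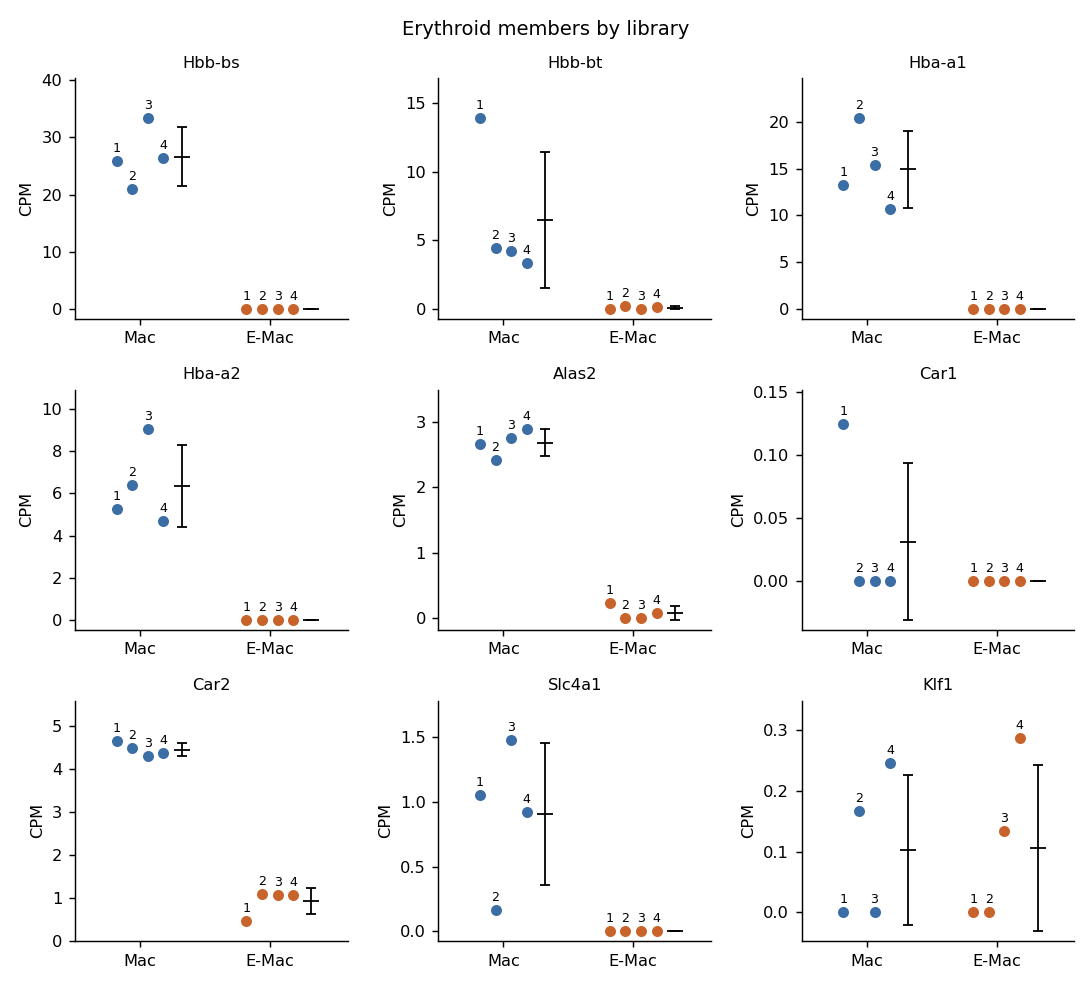
CPM (y axes starting near 0 and differing between panels) of the 9 members in 4 Mac (blue) and 4 E-Mac (orange) libraries, numbered by replicate; black bars give mean ± SD. The 4 globins, Alas2, Car2 and Slc4a1 are lower in every E-Mac library, while Car1 and Klf1 stay at or below 0.288 CPM throughout.

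The share of counts on each copy is given for every Mac library, with intervals that leave out the spread between libraries and the assignment of shared reads. Hbb-bt took 35.0% of the beta-globin counts in Mac 1 (95% Clopper-Pearson interval 31.3 to 38.8%), 17.4% in Mac 2 (13.3 to 22.2%), 11.3% in Mac 3 (8.88 to 14.1%) and 11.2% in Mac 4 (8.53 to 14.4%). Mac 1 thus stood apart in Hbb-bt, while its 25.8 CPM of Hbb-bs lay within the range of the other 3. Hba-a2 took 28.4, 23.9, 36.9 and 30.5% of the alpha-globin counts in Mac 1 to 4. Per kilobase of annotated exon, the beta pair stood at 2.20, 0.964, 1.52 and 1.94 times the alpha pair. Mac 2 was the only library with more alpha than beta on that scale, and it had both the lowest Hbb-bs level and the highest Hba-a1 level. Per kilobase the order in Mac was Hbb-bs (34.7 ± 6.67 CPM per kb), Hba-a1 (18.4 ± 5.08), Hba-a2 (9.52 ± 2.88), Hbb-bt (9.21 ± 7.09), Car2 (1.84 ± 0.0646), Alas2 (1.12 ± 0.0849), Slc4a1 (0.185 ± 0.112), Klf1 (0.0675 ± 0.0808) and Car1 (0.0249 ± 0.0498). Hba-a2 and Hbb-bt did not differ beyond their spread, nor did Klf1 and Car1.

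**Figure D2:**
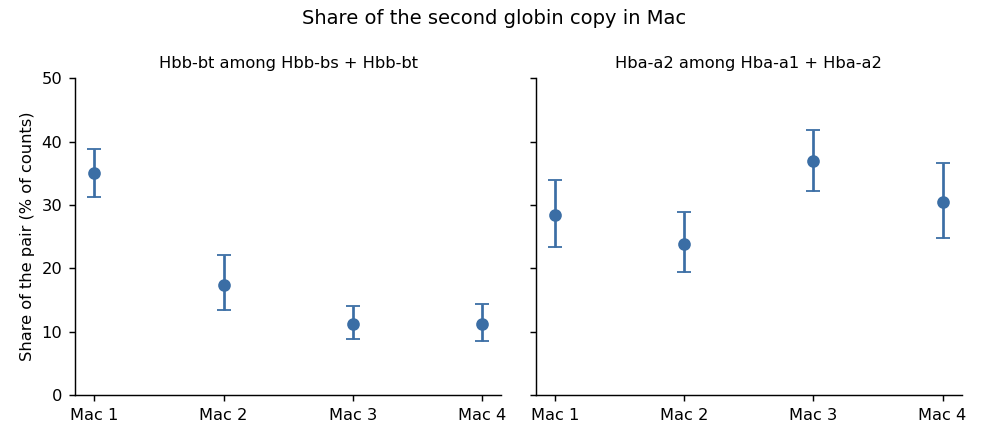
Share of counts (%, y axis) that fell on Hbb-bt within the beta-globin pair (left) and on Hba-a2 within the alpha-globin pair (right) in each Mac library; bars are 95% Clopper-Pearson intervals, counting error only. Mac 1 has 35.0% Hbb-bt against 11.2 to 17.4% in the other 3, and Hba-a2 has 23.9 to 36.9% over the 4 libraries.

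Of the members that are not globins, Alas2 and Slc4a1 were nearly confined to Mac in these 8 libraries, Car2 was lower but present in E-Mac, and Car1 and Klf1 were too low in both groups to compare. Alas2, the erythroid enzyme of heme synthesis (chromosome X, 150547375 to 150570638), had 43, 29, 45 and 47 counts in Mac and 3, 0, 0 and 1 in E-Mac. Its level in Mac was even, at 2.69 ± 0.204 CPM, a spread of 7.59% of the mean where that of Hbb-bs was 19.3%. The ratio of Mac to E-Mac was 38.0 (95% counting interval 14.6 to 141). Slc4a1 (chromosome 11, 102348824 to 102366203) had 17, 2, 24 and 15 counts in Mac and 0 in each E-Mac library, at least 16.9-fold lower, or 8.47-fold with a floor of 6 counts. Mac 2 had the fewest counts of Slc4a1 as well as of Hbb-bs and Alas2, and it was the shallowest library. Scaled for depth, Mac 2 held 0.167 CPM of Slc4a1 against 0.925 to 1.47 in the other 3. Car2 (chromosome 3, 14886273 to 14900770) had 75, 54, 70 and 71 counts in Mac and 6, 16, 16 and 15 in E-Mac. Its mean was 4.46 ± 0.156 CPM in Mac against 0.931 ± 0.309 CPM in the co-cultured cells, and the ratio of summed counts was 4.72 (95% counting interval 3.50 to 6.46), and E-Mac 1 was the low library. Car1, 77.9 kb from Car2, had 2 counts in Mac 1 and 0 elsewhere. Klf1 (chromosome 8, 84901928 to 84905291) had 0, 2, 0 and 4 counts in Mac and 0, 0, 2 and 4 in E-Mac, a ratio of 0.926 with an interval of 0.248 to 3.46. The transcription factor of adult globin expression was thus not measurably different at this depth, and the interval leaves room for a change of several fold either way.

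For 7 of the 9 members the highest E-Mac level was under the lowest Mac level, as it was for 27.2% of the 13412 tested genes. Of all tested genes 58.3% were called in either direction (edgeR, adjusted p under 0.05). The members were chosen on this contrast, so nothing is read from that count. A filter on low counts (edgeR's filterByExpr) was passed by 6 members and not by Car1, Slc4a1 and Klf1. A count of exactly 0 was rarer than a fall. Of 12910 genes with at least 50 counts over Mac, 12 (0.093%) had 0 in all E-Mac libraries, and of 11680 with at least 100 counts, 6 (0.0514%) did. Of 8975 with at least 500 counts, 3 (0.0334%) did, Abca6, Hbb-bs and Hba-a1. The 12 included the members Hbb-bs, Hba-a1, Hba-a2 and Slc4a1. Among the others, Abca6, a lipid transporter gene, had 473, 350, 517 and 452 counts in Mac. The aldehyde oxidase gene Aox3 had 221 counts over Mac, Spink2 108, the procollagen-processing protease gene Adamts3 92 and Hspa12a 89. Hbb-bt and 3 further genes with at least 200 counts over Mac had 1 to 5 counts in E-Mac: Rem1 (606 and 2), Sult1a1 (420 and 5) and Gm4956 (403 and 4), which were picked after their values had been seen. In the mirror direction, 39 of 12626 genes with at least 50 counts over E-Mac had 0 in all Mac libraries.

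**Figure D3:**
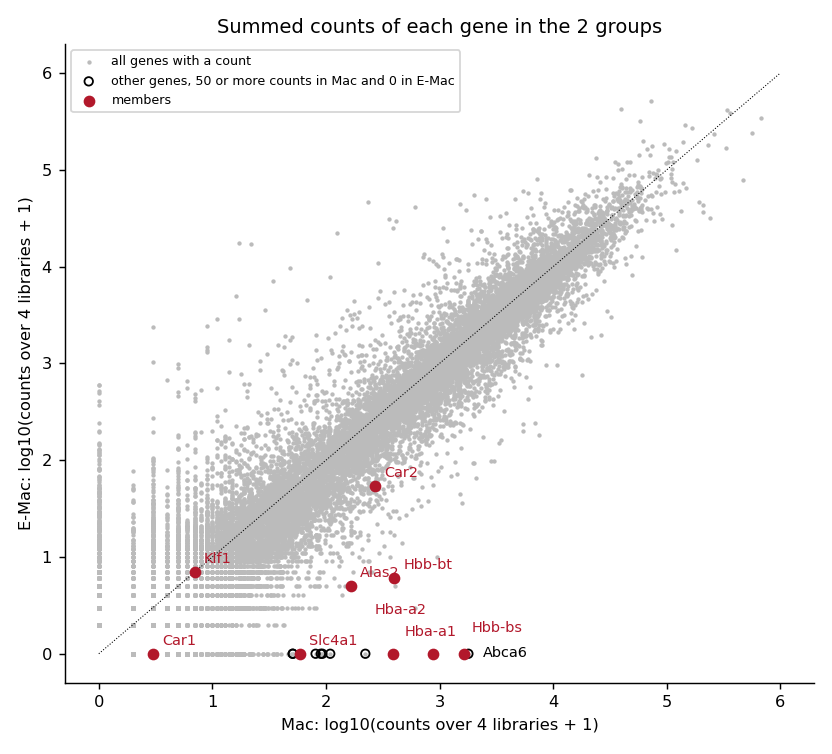
Counts of each gene summed over the 4 Mac libraries (x axis) and the 4 E-Mac libraries (y axis), both as log10(counts + 1); the dotted line marks equal sums, red points are the members and open circles the other genes with at least 50 counts in Mac and 0 in E-Mac. The members at 0 in E-Mac lie on the lower edge together with Abca6, and Klf1 lies on the line.

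The 5 genes most like the mean of the 4 globins over the 8 libraries, by Pearson's r of log2(CPM + 1), were Rdm1, Kmt5c, Atp8a1, Orm1 and E2f2, with r from 0.998 to 0.999. The points share one group step and the library scaling, so no p is given. None of these 5 was at 0 in E-Mac. Orm1, an acute-phase protein gene, went from 25.0 ± 3.44 to 0.786 ± 0.187 CPM, Rdm1 from 15.3 ± 1.64 to 3.65 ± 0.131 and the phospholipid flippase gene Atp8a1 from 119 ± 4.37 to 85.9 ± 0.487 CPM.

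The rest of the erythroid programme did not follow the globins as a block. Of 69 other erythroid genes in the table, drawn from lists of membrane proteins, transcription factors, heme synthesis and maturation, 49 could be tested. Of these 16 fell and 16 rose in E-Mac (edgeR, adjusted p under 0.05), 32.7% each, with a median log2 fold change of 0.01. Over all 13412 tested genes 28.8% fell and 29.5% rose, with a median of -0.003. Scaling to library totals alone put the median of all genes at -0.147, and the erythroid split was then 21 lower and 9 higher. The 20 erythroid genes too low to test held 214 counts over Mac and 83 over E-Mac. Of these, 14 had more counts in Mac, 3 had more in E-Mac and 3 had 0 counts in all libraries.

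Among membrane and cytoskeleton genes, 3 of 6 tested fell and 2 rose. The number that rose was 0 without Mac 3 and 1 without E-Mac 4, Mac 1 or Mac 4. Xk, a partner of the Kell blood group protein, went from 9.83 ± 0.788 to 3.08 ± 0.764 CPM (log2 fold change -1.67 ± 0.19, edgeR adjusted p = 5.92e-06). The tetraspanin gene Tspan33 (-1.89 ± 0.25, edgeR adjusted p = 2.72e-05) and the glycophorin C gene Gypc (-0.73 ± 0.11, edgeR adjusted p = 0.000103) fell as well. The membrane skeleton gene Epb41 rose slightly (0.25 ± 0.08, edgeR adjusted p = 0.014, 0.00254 to 0.238 over all alternatives and 0.0528 without Mac 3). Its call was lost with total-count scaling (0.238) and upper-quartile factors (0.117). The ankyrin gene Ank1, at 0.398 ± 0.223 and 1.13 ± 0.760 CPM, passed with overlapping groups (edgeR adjusted p = 0.0304, 0.0131 to 0.296 over all alternatives). Its adjusted p was 0.141 without E-Mac 4, 0.0585 without Mac 1, 0.0694 without Mac 3 and 0.0886 without Mac 4 (edgeR). Ermap, a blood group gene too low to test, went the other way from the globins, with 0 counts in each Mac library and 3, 9, 8 and 6 in E-Mac.

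Of 14 tested transcription factors 4 were lower and 5 higher. The 5 became 2 with total-count scaling or upper-quartile factors, and 3 without E-Mac 2, Mac 2, Mac 3 or Mac 4. Bcl11a, a repressor of embryonic globin genes, fell from 21.0 ± 1.07 to 4.25 ± 0.836 CPM (-2.30 ± 0.14, edgeR adjusted p = 1.57e-08). Tfdp2, a partner of E2F factors (-2.11 ± 0.16), and the corepressor gene Cbfa2t3 (-1.56 ± 0.17) fell too, each in 4 of 4 E-Mac libraries (edgeR adjusted p of at most 2.47e-05). Gata1 did not fall. It had 431, 326, 424 and 382 counts in Mac and 313, 582, 543 and 774 in E-Mac, and passed as higher with overlapping groups (0.60 ± 0.20, edgeR adjusted p = 0.0227, 0.000223 to 0.11 over all alternatives). Its adjusted p was 0.0604 without E-Mac 2, 0.0555 without Mac 4 and 0.0695 with total-count scaling (edgeR). When E-Mac 2 and 4, which held more Col1a1, were both left out, the log2 fold change was 0.25 (edgeR adjusted p = 0.0865). Its cofactor gene Zfpm1 (1.01 ± 0.14, edgeR adjusted p = 3.19e-05) rose in 4 of 4 libraries, and its partner Gfi1b (0.74 ± 0.21, edgeR adjusted p = 0.00884) rose with overlapping groups. Of 7 eosinophil markers, Epx, Prg2, Prg3 and Ear6 fell, Ccr3 rose, and Siglecf and Il5ra did not pass; the part of eosinophils in the Gata1 difference was not tested. Nfe2, at 206 ± 1.04 and 172 ± 32.4 CPM, did not pass (-0.26 ± 0.11, edgeR adjusted p = 0.0567). Mafg rose slightly (0.18 ± 0.06, edgeR adjusted p = 0.0294, 0.0125 to 0.705 over all alternatives). Its adjusted p was 0.0703, 0.0817 and 0.0692 without Mac 2, 3 and 4 and 0.705 with total-count scaling (edgeR).

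Of 17 heme synthesis genes, the pathway of Alas2, 6 fell and 4 rose, and without E-Mac 2 and 4 the number that rose was 7. Alas1, the form of the first enzyme used outside red cells, rose from 134 ± 3.41 to 266 ± 10.98 CPM (0.98 ± 0.06, edgeR adjusted p = 2.11e-08), in the opposite direction to Alas2. The mitochondrial carrier genes Slc25a39 (0.72 ± 0.07) and Slc25a37, which imports iron (0.53 ± 0.08), rose in 4 of 4 E-Mac libraries (edgeR adjusted p of at most 6.41e-05). Later enzymes fell, among them Cpox, coproporphyrinogen oxidase, from 24.2 ± 2.09 to 12.8 ± 2.18 CPM (-0.92 ± 0.13, edgeR adjusted p = 4.04e-05). Of 12 tested maturation and reticulocyte genes 3 fell and 5 rose. This order turned to 6 lower and 3 higher with total-count scaling, and to 5 lower and 3 higher with upper-quartile factors or without E-Mac 2, E-Mac 4 or Mac 4. Without Mac 1 the number that rose was 3. The mitophagy receptor gene Bnip3l, which clears mitochondria from reticulocytes, fell from 188 ± 4.2 to 83.2 ± 5.77 CPM (-1.18 ± 0.07, edgeR adjusted p = 8.17e-09). The ubiquitin enzyme gene Ube2l6 (1.69 ± 0.11), an interferon-responsive gene, and the transferrin receptor gene Tfrc (1.33 ± 0.12) rose (edgeR adjusted p of at most 1.05e-06). Cd24a, the most abundant of the list, passed with overlapping groups (0.53 ± 0.20, edgeR adjusted p = 0.0421, 0.00202 to 0.291 over all alternatives). Its call was lost on leaving out either E-Mac 2 (0.12) or E-Mac 4 (0.126) or any single Mac library (0.0552 to 0.0839; edgeR adjusted p). Hemgn, an erythroid nuclear protein gene too low to test, had 12, 10, 14 and 9 counts in Mac and 6, 0, 0 and 2 in E-Mac.

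**Figure D4:**
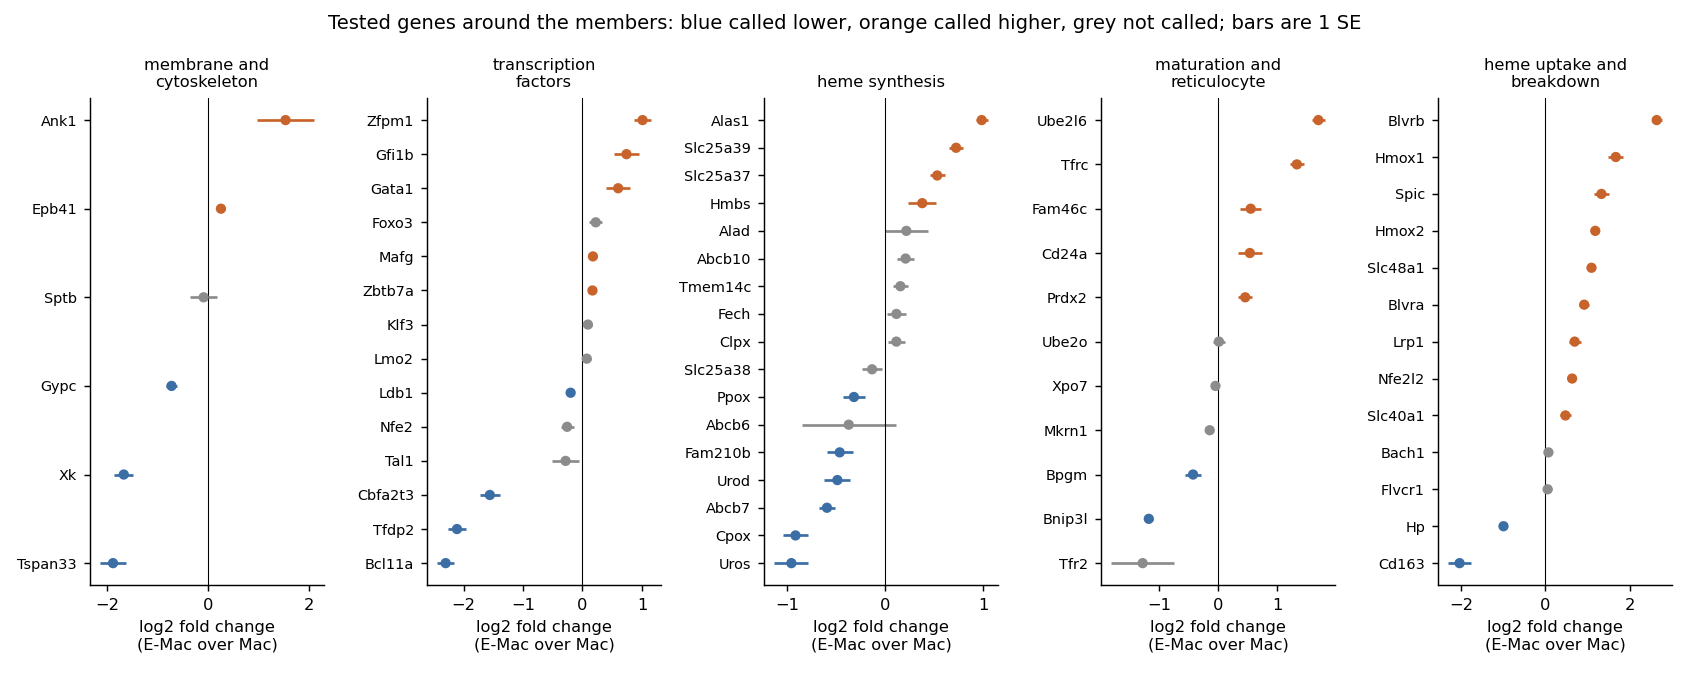
Log2 fold change (x axes, E-Mac over Mac, scales differ between panels) ± 1 SE of the tested genes with a count in both groups, in 4 erythroid lists and the heme uptake and breakdown list, members left out; blue is called lower, orange higher and grey not called at an edgeR adjusted p under 0.05. Each erythroid panel holds both directions, and 9 of 13 genes in the last panel are higher.

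Other genes of the members' families are given next. The embryonic and theta globin genes Hbb-bh0, Hbb-bh1, Hbb-bh2, Hba-x and Hbq1a had 0 counts in all 8 libraries, as did the myoglobin and cytoglobin genes Mb and Cygb. Hbb-y, Hbq1b and the neuroglobin gene Ngb had 2 counts in a library at most. A count of 0 in a library allows up to 0.184 to 0.2498 CPM. Of the other carbonic anhydrase genes 3 were high enough to test. Car13, a cytosolic form, rose from 3.46 ± 0.610 to 43.1 ± 7.66 CPM (3.65 ± 0.16, edgeR adjusted p = 8.57e-10), and the mitochondrial form Car5b (2.64 ± 0.36, edgeR adjusted p = 3.55e-05) rose also. Car9 was 3.31 ± 0.631 and 3.05 ± 0.625 CPM (-0.12 ± 0.23, edgeR adjusted p = 0.689). Of the other Slc4 transporter genes 4 were tested and 2 rose, where 29.5% of all tested genes rose. Slc4a11 had 4, 0, 0 and 0 counts in Mac and 121, 86, 123 and 134 in E-Mac (edgeR adjusted p = 9.83e-08), and Slc4a2, the anion exchanger of many cell types, rose slightly (0.19 ± 0.06, edgeR adjusted p = 0.0253, 0.0067 to 0.601 over all alternatives). Its adjusted p was 0.059 without E-Mac 3, 0.0674, 0.0734 and 0.0622 without Mac 1, 3 and 4, and 0.601 with total-count scaling (edgeR). Slc4a7 did not pass (0.16 ± 0.08, edgeR adjusted p = 0.102).

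Of 15 other Kruppel-like factor genes 4 were too low to test, with 12 counts over Mac and 4 over E-Mac. The 11 tested were far more abundant than Klf1 and mostly lower in E-Mac, with 8 lower and 2 higher. Among all tested genes 28.8% were lower and 29.5% higher, and the median log2 fold change of the 11 was -1.17. The 2 became 0 with total-count scaling and 1 with upper-quartile factors or without E-Mac 2, E-Mac 4, Mac 3 or Mac 4. Klf4, a regulator of monocyte differentiation, fell from 364 ± 57.8 to 33.4 ± 4.03 CPM (-3.44 ± 0.12, edgeR adjusted p = 1.67e-10). Klf9 (-2.63 ± 0.13) and Klf11 (-1.93 ± 0.12) fell in 4 of 4 E-Mac libraries (edgeR adjusted p of at most 1.76e-08). Those that rose were Klf7 (0.30 ± 0.11, groups overlapping) and Klf16 (0.38 ± 0.11).

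The genes closest to the alpha-globin pair, Hba-x, Hbq1a and Hbq1b, had 0 counts in every E-Mac library and at most 2 in a Mac library. Farther genes were expressed in both groups. Nprl3, whose introns hold the alpha-globin enhancers, lies 15.8 kb away and stood at 12.1 ± 1.76 and 11.1 ± 1.01 CPM. Mpg (-0.36 ± 0.16, edgeR adjusted p = 0.0762) and Rhbdf1 (-1.02 ± 0.44, edgeR adjusted p = 0.064), at 50.8 and 61.2 kb, did not pass. Sh3pxd2b, 50.5 kb away on the other side and coding for a scaffold protein of podosomes, rose from 18.3 ± 1.35 to 141 ± 29.2 CPM (2.95 ± 0.14, edgeR adjusted p = 5.94e-09). Of the 7 genes listed as neighbours 1 rose and 0 fell, where 29.5% of all tested genes rose and 28.8% fell. With total-count scaling 3 fell, with upper-quartile factors 2, and without E-Mac 4 1. Polr3k, one of the 7, is annotated on chromosome 2 in the mouse and is no neighbour there.

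Genes by which macrophages take up and break down hemoglobin and heme were mostly higher in E-Mac: of 13 tested, 9 rose and 2 fell, 69.2% higher against 29.5% of all tested genes, with a median of 0.70. Hmox1, heme oxygenase, which opens the heme ring, had 1911, 1748, 2184 and 2414 counts in Mac and 6662, 6629, 7213 and 3878 in E-Mac, so that its groups did not overlap (1.67 ± 0.17, edgeR adjusted p = 1.32e-05). The biliverdin reductase gene Blvrb, which acts after it, rose from 17.6 ± 1.35 to 109.5 ± 18.7 CPM (2.64 ± 0.12, edgeR adjusted p = 1.16e-09). Hmox2, the constitutive heme oxygenase (1.18 ± 0.09), and Slc48a1, which carries heme out of the phagolysosome (1.09 ± 0.08), rose in 4 of 4 E-Mac libraries (edgeR adjusted p of at most 9.11e-08). The receptor for hemoglobin bound to haptoglobin, Cd163, fell from 6.84 ± 0.836 to 1.66 ± 0.788 CPM (-2.03 ± 0.26, edgeR adjusted p = 2.2e-05), and so did the haptoglobin gene Hp, from 1074 ± 26.7 to 541 ± 52.0 (-0.99 ± 0.08, edgeR adjusted p = 2.19e-07). Of 10 tested genes used to mark macrophages of erythroblastic islands 7 rose and 3 fell, against 29.5% and 28.8% of all tested genes. The sialic acid receptor gene Siglec1 (1.79 ± 0.12), the integrin gene Itgav (1.07 ± 0.07) and the syndecan gene Sdc1 (5.35 ± 0.34) rose (edgeR adjusted p of at most 2.1e-07). Those that fell were Vcam1 (-1.997 ± 0.18), which binds erythroblasts, Stab2 (-3.86 ± 0.61) and C1qa (-0.98 ± 0.17).

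Markers of other blood cells moved between the groups beside the globins, and their part in the globin difference was not tested. Their counts stand against 28.8% lower and 29.5% higher among all tested genes. Of 14 neutrophil and granulocyte markers 10 fell and 1 rose, and they summed to 30108 to 33678 CPM in Mac libraries and 9554 to 15292 CPM in E-Mac libraries. Of 9 mast cell and basophil markers 8 fell, with sums of 398 to 444 CPM in Mac and 157 to 288 in E-Mac; the basophil protease gene Prss34 fell from 72.6 ± 10.5 to 11.7 ± 6.59 CPM (-2.63 ± 0.35, edgeR adjusted p = 0.000235). Of 8 stem and progenitor markers 7 were tested, 5 fell and 1 rose, with sums of 136 to 157 CPM and 63.4 to 88.8. Megakaryocyte and platelet markers, whose cells share a precursor with red cells, summed to 146 to 164 CPM in Mac and 229 to 299.6 in E-Mac. Of 9 tested 6 fell, and the higher sum came with the chemokine gene Pf4, which went from 0.536 ± 0.222 to 127 ± 49.4 CPM. Eosinophil marker sums overlapped, at 2399 to 2754 CPM in Mac and 1989 to 2836 in E-Mac, with 4 of 7 lower and 1 higher. Of 13 macrophage core markers 7 rose and 2 fell. They summed to 13025 to 14086 CPM in Mac libraries and 8971 to 12385 CPM in E-Mac libraries. The lower sum came with Lyz2, the most abundant of them, which went from 11204 ± 360 to 6147 ± 900 CPM. The globin sum was 54.4 ± 7.45 CPM in Mac and 0.0875 ± 0.104 CPM in E-Mac.

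**Figure D5:**
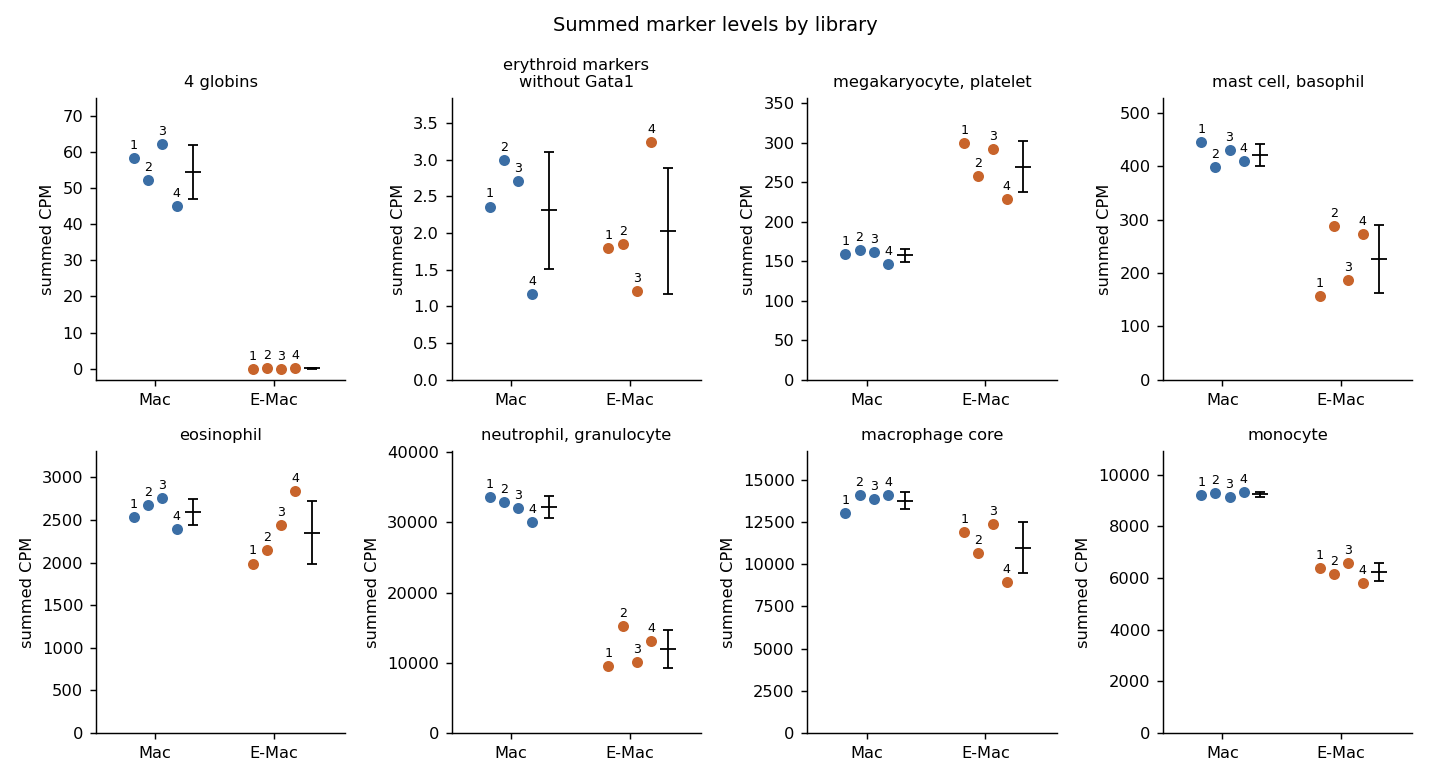
Summed CPM (y axes, starting at or near 0) of the 4 globins and of marker lists of other cell types in each Mac (blue) and E-Mac (orange) library, numbered by replicate, with mean ± SD in black. The globin sum drops from 45.1 to 62.0 CPM to at most 0.206 CPM, the 11 erythroid markers without Gata1 overlap between the groups, and the neutrophil, monocyte and mast cell sums are lower in E-Mac.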

How the data were processed

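For 8 polyA RNA libraries the authors deposited raw counts per gene symbol in a single table. Per the submitters' processing notes, bcl2fastq, HISAT2, featureCounts, Subread and DESeq2 were used with mm10. Their versions, the annotation, strandedness and the handling of reads with several matches: not given in the sources used here. Of 53673 names, 26 shaped like dates (0.133 to 0.16% of counts) were left out. All 37 mitochondrial genes held 0 counts.

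From the counts, 13412 genes passed filterByExpr (minimum count 10, minimum total 15) and entered edgeR 4.0.16 under R 4.3.3 (TMM, robust quasi-likelihood fit, Benjamini-Hochberg over all tested genes, threshold 0.05); a standard error is the log2 fold change over the square root of F. Folds against 0 use 3 counts over the group, and counting intervals are exact at 95%. Exon lengths and coordinates are from GENCODE M21. The alternatives were RLE, upper-quartile and total-count scaling, 2 other filters, DESeq2 1.42.0, limma-voom (limma 3.58.1), a replicate block, no robust option, each library left out, E-Mac 2 and 4 left out together and, chosen after seeing the data, a floor of 6 counts and the Hbb-bt ratio without each Mac library. The members and lists were chosen with earlier results of these data known. Named were the members, in each pathway list the 3 genes with the lowest adjusted p, the 2 most abundant genes in Mac of each erythroid list and of each marker list over all libraries, the 5 most abundant other genes at 0 in E-Mac and the 5 most like the globins; not each is printed. Other genes printed, among them Epor, Ermap, Hemgn, Zfpm1, Gfi1b, Klf7, Klf16, Hmox1, Cd163, Hp, Vcam1, Stab2, C1qa and Nprl3, were chosen after their values were seen. Some items are not reported here. The 11 pathway and 13 marker lists share 15 genes. B cell, T and NK cell, endothelial, osteoclast, monocyte and stromal marker lists had 5, 4, 5, 6, 9 and 10 tested genes. In the same order, 1, 3, 1, 1, 6 and 1 of these were lower and 4, 0, 3, 2, 2 and 7 higher. Among all tested genes 28.8% were lower and 29.5% higher.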

Additional observations from a re-analysis of the deposited data

Results flagged for a closer look

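In groups of 4 libraries, 1 library stood far from the other 3 in 9 of 152 group and gene combinations examined, close to the 1 in 20 that chance gives. For the members, Hbb-bt was 13.9 CPM in Mac 1 against 3.33 to 4.41 in the other Mac libraries, although Hbb-bs and the alpha-globins of that library lay within the range of the rest. Car2 was 0.468 CPM (6 counts) in E-Mac 1 against 1.08 to 1.10 in the other E-Mac libraries. Car1 was 0.124 CPM in Mac 1, which is 2 counts, against 0. Among the other named genes, Slc4a11 was 0.248 CPM in Mac 1 against 0, Xk 8.66 and Klf9 24.1 CPM in Mac 3, both below the rest, Hspa12a 1.84 CPM in Mac 3, above the rest, Rhbdf1 1.29 CPM in E-Mac 4 against 0.404 to 0.468, and the neutrophil granule gene Ngp 1988 CPM in E-Mac 2 against 1145 to 1230.5.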

How the results depend on the processing

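The mean CPM of the 4 globins in Mac, 54.4, ran from 51.8 to 57.5 over the alternatives. The 16 erythroid genes lower in E-Mac ran from 13 to 21. The 16 higher fell to 9 with total-count scaling and to 9 with upper-quartile factors, and to 10 to 16 when single libraries were left out (10 without Mac 3 and 10 without Mac 4); the cause was not tested. With 100 or more counts in Mac, 5 to 9 genes were at 0 in E-Mac when single libraries were left out. Without E-Mac 2 and 4, the erythroid counts were 20 lower and 13 higher. Replicate numbers gave no sign of pairing (correlations of deviations -0.043, 0.028, 0.015 and -0.106 for numbers 1 to 4); with the number as a block, 16 erythroid genes were lower and 12 higher, and 3690 genes lower and 3768 higher in all, against 3860 and 3954. With total-count scaling 5018 genes were lower and 2996 higher. Of 71 named genes, 54 kept direction and call in every alternative run. Signs turned, with no call on the turned side, for Car9 (-0.22 to 0.044 when single libraries were left out, 0.044 without E-Mac 2, 0.0075 without Mac 1, 0.013 without E-Mac 2 and 4), Csf1r (-0.087 with total counts, -0.042 with upper-quartile factors) and Acp5 (-0.059 and -0.012 in the same order, -0.015 without E-Mac 2 and 4, -0.020 without Mac 1 and up to 0.18 without another single library). Few counts lie behind Car1, Klf1 and Slc4a1: 2, 12 and 58.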
